A study of Mus musculus with 7 samples.

Results

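The genes described here are 58 mouse regulators of chromatin and DNA methylation. They were chosen by name from the deposited count table, and all 58 had a row among its 35727 genes. They comprise writers, erasers and readers of DNA methylation, the Polycomb repressive complexes PRC1 and PRC2, histone methyltransferases, demethylases and deacetylases, and nucleosome remodellers.

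DNA methyltransferases place methyl groups on cytosine, mostly where it precedes guanine, and TET dioxygenases oxidise those groups, a step on the way to their removal. Polycomb complexes keep genes silent: PRC2 methylates lysine 27 of histone H3 (H3K27) and PRC1 ubiquitinates histone H2A. Histone acetylation and the position of nucleosomes are set by deacetylases and by remodellers that use ATP, and genes of both kinds are altered in many sarcomas and carcinomas.

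The libraries were polyA RNA-seq of RFP+ tumour cells sorted from mouse tumours of undifferentiated pleomorphic sarcoma, a soft tissue cancer without a line of differentiation. The 3 Vgll3-labelled libraries came from the p53KO Vgll3 OE model, in which Vgll3, a cofactor of TEAD transcription factors, was overexpressed. The 4 Ccne1-labelled libraries came from the p53KO Ccne1 OE model, in which Ccne1, the gene of the G1/S regulator cyclin E1, was overexpressed. Both models began as mesenchymal stem cells of female C57/Bl6 p53KO mice, so both groups carry the p53 knockout. The cells received their gene from retroviral vectors, went through wild-type C57/Bl6 females as subcutaneous grafts on 2 occasions, and were grown briefly in culture before the transplantation that gave the sampled tumours. Each model is 1 cell line, so the difference between models cannot be told apart from a difference between these lines. The labels do not say that libraries of a model came from separate tumours or animals, so a p-value here weighs a difference against variation among libraries, part of which may be technical.

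Library totals ran between 21725890 and 53610300 estimated counts. Vgll3 itself had 285, 256 and 216 CPM in the Vgll3-labelled libraries, against 37.95, 54.3, 54.5 and 56.2 CPM in the Ccne1-labelled libraries, and the groups did not overlap. Ccne1 had 12.7, 15.1 and 16.97 CPM in the Vgll3-labelled libraries, against 6.73, 9.24, 18.3 and 16.7 CPM in the Ccne1-labelled libraries. Ccne1 was thus not higher in the libraries labelled for its overexpression (log2 fold change 0.23 with an SE of 0.34, edgeR adjusted p = 0.609), and the groups are called by their labels for that reason. Within groups, Pearson's r of log2 CPM, the count scaled to library size, across genes was 0.956 and 0.960 for the pairs with Vgll3 replicate 3 and 0.978 to 0.987 for the other pairs, so this library stands apart from the rest of its group. Among cell type markers, the 7 mesenchymal genes summed to 45928 to 53740 CPM in the Vgll3-labelled and 31303 to 35619 CPM in the Ccne1-labelled libraries, with Thy1 under 10 CPM in every library. Of these 7 genes, Col1a1, Col1a2, Pdgfrb and Fn1 were called higher, while Pdgfra (226.0 CPM in the Vgll3-labelled against 918.9 CPM in the Ccne1-labelled libraries, edgeR adjusted p = 1.12e-05) and Vim (4375 against 13970 CPM, edgeR adjusted p = 1.03e-05) were called lower. The 5 leukocyte genes summed to 6.76 to 12.2 CPM in the Vgll3-labelled and 9.74 to 21.1 CPM in the Ccne1-labelled libraries. The 7 endothelial genes summed to 33.1 to 227.3 CPM in the Vgll3-labelled and 48.1 to 131.9 CPM in the Ccne1-labelled libraries. The highest sum was in Vgll3 replicate 3, most of it Pecam1 at 184.1 CPM, with Cdh5 next at 17.17 CPM. The sums of T, B and NK cell, epithelial, muscle fibre and erythroid markers were each at most 5.96 CPM in any Vgll3-labelled and 10.3 CPM in any Ccne1-labelled library. The 10 dissociation stress genes summed to 10956 to 13954 CPM in the Vgll3-labelled and 8938 to 11523 CPM in the Ccne1-labelled libraries. Of the stress genes, 3 were called higher and 2 lower. None of the leukocyte and endothelial genes, none of the 6 macrophage genes tested and none of the 2 T, B and NK cell genes tested passed the edgeR test. Genes at low levels that were called lower were the epithelial Krt8 (edgeR adjusted p = 0.000291), the muscle fibre gene Acta1 (0.002) and the erythroid Hba-a1 (0.00241) and Hba-a2 (0.011), a near-identical pair whose counts are uncertain. Their part in the results was not tested. In bulk RNA of this kind, fewer cells of a type and less RNA per cell cannot be told apart.

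Of the 58 genes, 26 were higher and 15 were lower in the Vgll3-labelled libraries at an edgeR adjusted p below 0.05, and 17 were not called. The 41 called are 70.7% of these genes. The same test called 51.9% of the 13740 genes tested, 25.1% of them higher and 26.8% lower. Counts by role given below are to be read beside these shares. The median level of the regulators over the libraries was 68.7 CPM, against 21.4 CPM over all genes tested, with no scaling by gene length. Among genes with a mean of at least 20 CPM, 71.4% of the 49 chromatin regulators and 61.4% of all 7084 genes were called. At a fold of at least 1.5 as well, 11 were higher and 4 lower, which is 25.9% of the regulators beside 29.7% of all genes tested (15.5% higher, 14.1% lower). Their median log2 fold change, Vgll3-labelled over Ccne1-labelled, was 0.19, and their median absolute log2 fold change was 0.40, against 0.01 and 0.43 over all genes. The libraries of the groups did not overlap in 44 of the 58, with 27 higher and 17 lower, beside 55.7% of all genes tested (26.8% higher, 29% lower). Without Vgll3 replicate 3, 28 were called higher and 16 lower.

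**Figure D1:**
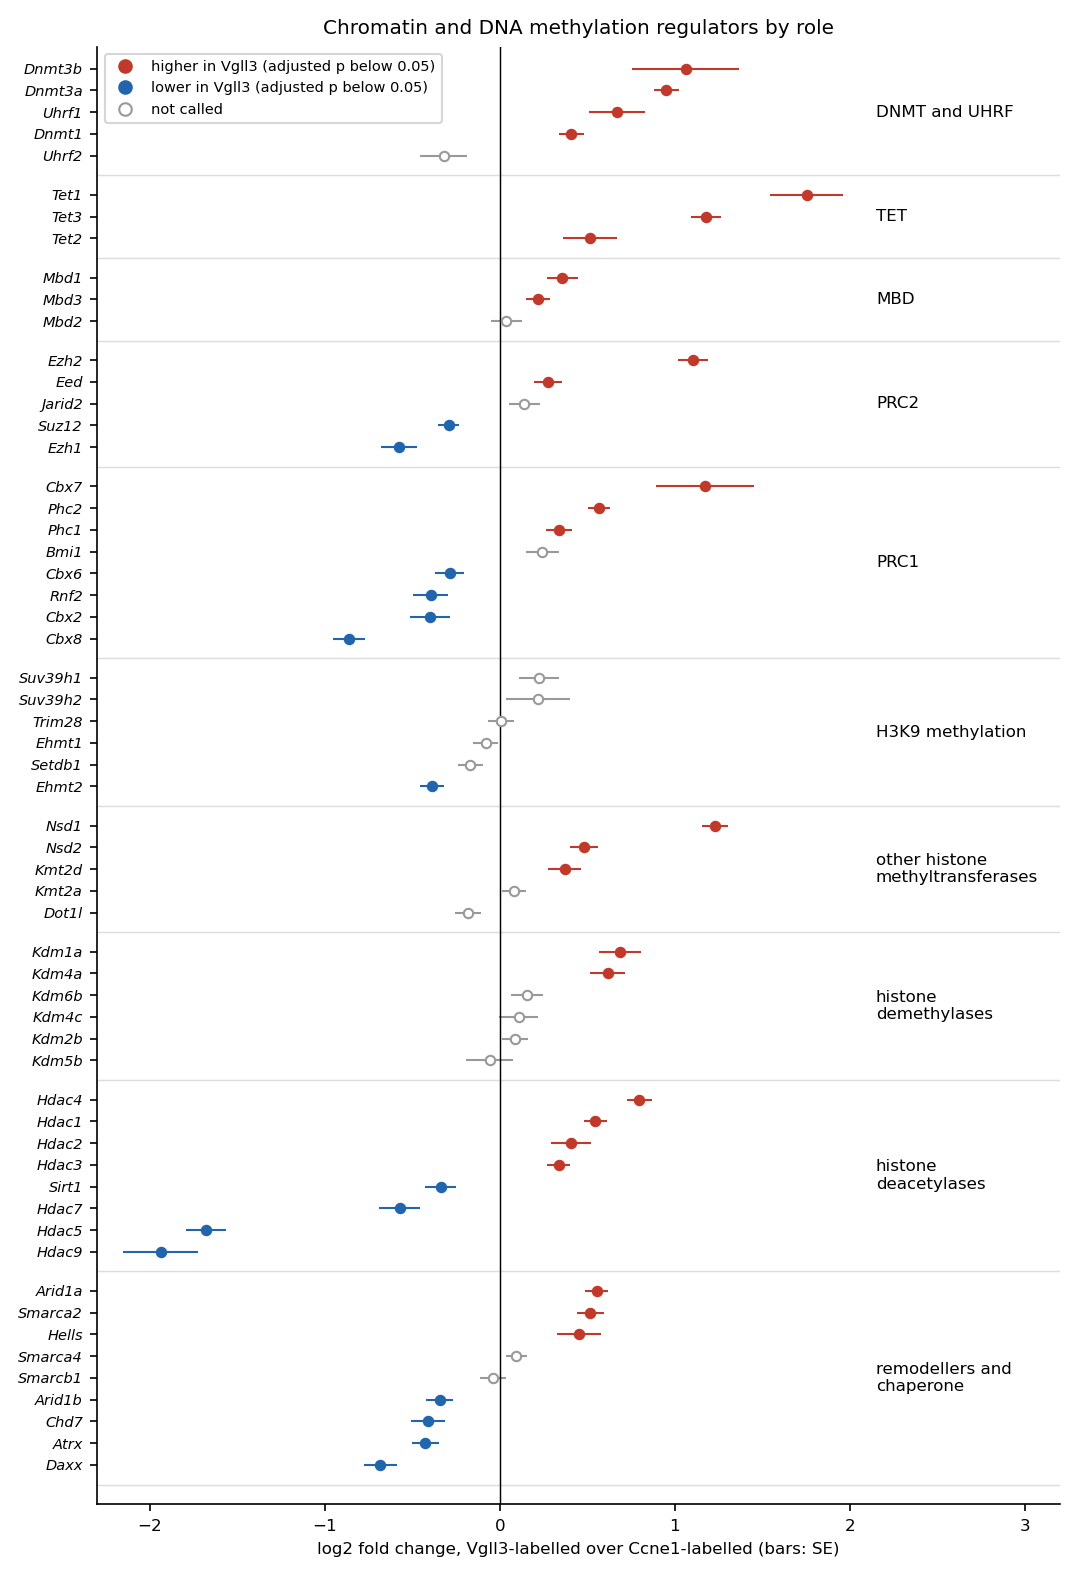
Log2 fold change (horizontal axis, Vgll3-labelled over Ccne1-labelled, bars are the SE) of each of the 58 genes, grouped by role down the page. The 3 TET genes all lie to the right of 0, the deacetylases split into 4 on each side, and 5 of the 6 H3K9 methylation genes are open circles, not called.

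The proximal promoters of these genes were rich in CG pairs. RefSeq promoter windows (GRCm38.p6, 250 bases before to 50 bases after a transcript start) were found for 49 of the 58 genes. In the window of each gene with the most CG pairs, the median was 31, against 8 over all 27025 genes with a window. The 49 genes had 70 windows and the 27025 genes had 32851. The 27025 genes were not limited to those tested here. Windows were searched on both strands for 4 spellings of the E2F site, TTTCCCGC, TTTGGCGC, TTTCGCGC and TTTGCCGC, which differ only in their middle letters and are counted as 1 motif. E2F factors switch on genes of DNA replication at G1/S. The letters were found in 7 of the 49 genes (14.3%) and in 2.6% of all genes. Among windows with at least 20 CG pairs, the shares were 17.5% of 40 chromatin regulators and 5.46% of 7772 genes. The stretch around 1 match in each gene follows 5′ to 3′ on the strand of the gene, with the matched letters in capitals, because the 7 genes that hold them differ in their calls. A match in capitals that reads differently from the 4 spellings is the reverse complement of one of them.
Ezh2 (higher; chr6:47595001-47595053, minus strand): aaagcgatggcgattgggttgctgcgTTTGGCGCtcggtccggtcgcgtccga
Uhrf1 (higher; chr17:56304102-56304161, plus strand): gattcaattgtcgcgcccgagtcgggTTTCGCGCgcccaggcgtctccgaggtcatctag
Dnmt1 (higher; chr9:20952809-20952868, minus strand): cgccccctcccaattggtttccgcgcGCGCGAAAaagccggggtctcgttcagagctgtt
Hells (higher; chr19:38930902-38930961, plus strand): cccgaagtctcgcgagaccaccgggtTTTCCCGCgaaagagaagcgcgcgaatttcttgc
Arid1a (higher; chr4:133754007-133754066, minus strand): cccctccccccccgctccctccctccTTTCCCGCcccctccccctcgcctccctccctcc
Suv39h1 (not called; chrX:8074392-8074451, minus strand): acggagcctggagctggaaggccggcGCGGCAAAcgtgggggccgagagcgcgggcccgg
Suz12 (lower; chr11:79992861-79992920, plus strand): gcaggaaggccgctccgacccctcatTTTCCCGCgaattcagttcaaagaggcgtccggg

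The letters shown start 3 bases after the transcript start in Ezh2, and between 55 and 219 bases before it in the other genes. The Dnmt1 window holds another match after its transcript start, which is not shown. By call, the letters were in 5 of 21 windowed genes that were higher, 1 of 13 that were lower and 1 of 15 that were not called. The TEAD motif GGAATG was in 6.12% of the 49 genes and 16.6% of all genes, the CCAAT box in 40.8% and 41.1%, and the cell cycle motif CHR (TTTGAA) in 14.3% and 20.2%. A match describes letters and is no evidence of binding. Gene bounds given with the results are from the GRCm38 annotation, and means are given with the SD over 3 Vgll3-labelled and 4 Ccne1-labelled libraries.

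Genes that copy and place DNA methylation were higher in the Vgll3-labelled tumour cells: 4 of 5 rose, by 1.33-fold to 2.09-fold, and none fell. Dnmt1, the maintenance enzyme that methylates newly replicated DNA, had 168, 175 and 196 CPM in the Vgll3-labelled libraries, against 137, 133, 132 and 139.7 CPM in the Ccne1-labelled libraries. The lowest Vgll3-labelled library lay above the highest Ccne1-labelled one (log2 fold change 0.41 with an SE of 0.07, edgeR adjusted p = 0.0015). Uhrf1 (ENSMUSG00000001228, chr17:56303321-56323486, plus strand), which binds hemimethylated DNA and brings Dnmt1 to it, had 91.7, 116 and 119 CPM in the Vgll3-labelled libraries, against 85.9, 55.2, 60.1 and 72.2 CPM in the Ccne1-labelled libraries. The groups were separate by a narrow margin, between replicate 1 of each (log2 fold change 0.67 with an SE of 0.16, edgeR adjusted p = 0.00785). Its paralog Uhrf2 had 30.1, 36.5 and 36.98 CPM in the Vgll3-labelled libraries, against 41.5, 53.1, 40.6 and 36.7 CPM in the Ccne1-labelled libraries. These values overlapped, at an edgeR adjusted p of 0.0724.

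The de novo methyltransferase gene Dnmt3a (ENSMUSG00000020661, chr12:3806007-3914443, plus strand) had 85.1, 78.6 and 84.6 CPM in the Vgll3-labelled libraries, against 44.2, 40.2, 45.3 and 41.5 CPM in the Ccne1-labelled libraries. The 3 Vgll3-labelled libraries lay close together and far above the Ccne1-labelled ones, 1.94-fold higher on average (log2 fold change 0.95 with an SE of 0.07, edgeR adjusted p = 1.63e-05). Dnmt3b, the other de novo enzyme, was low, with 2.68, 2.76 and 5.49 CPM in the Vgll3-labelled libraries, against 2.05, 1.48, 1.86 and 1.599 CPM in the Ccne1-labelled libraries. Vgll3 replicate 3 was the high library here, and the other Vgll3-labelled values lay close to the top of the Ccne1-labelled range (log2 fold change 1.06 with an SE of 0.31, edgeR adjusted p = 0.0176). Without that library the log2 fold change of Dnmt3b was 0.65. Per kb of exon, the 3 methyltransferases summed to 35.9 to 40.9 CPM per kb in the Vgll3-labelled and 25.6 to 26.7 CPM per kb in the Ccne1-labelled libraries. Dnmt1 made up 74.4% to 76.4% of that sum in the Vgll3-labelled and 80.7% to 83.0% in the Ccne1-labelled libraries. Dnmt3a made up 20.9% to 23.9% in the Vgll3-labelled and 15.7% to 17.7% in the Ccne1-labelled libraries. The pool of methyltransferase transcripts was thus larger and held a larger share of Dnmt3a in all 3 Vgll3-labelled libraries.

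All 3 TET genes rose as well. Tet1 (ENSMUSG00000047146, chr10:62804570-62908996, minus strand) had 6.11, 7.18 and 7.23 CPM in the Vgll3-labelled libraries, against 2.14, 1.68, 1.703 and 2.62 CPM in the Ccne1-labelled libraries, with the groups far apart. It had the largest rise of the 58 genes, 3.37-fold (log2 fold change 1.75 with an SE of 0.21, edgeR adjusted p = 0.00017), from a low level. Tet3 had 123, 115 and 98.3 CPM in the Vgll3-labelled libraries, against 47.6, 51.4, 50.1 and 49.1 CPM in the Ccne1-labelled libraries, with no overlap (log2 fold change 1.18 with an SE of 0.08, edgeR adjusted p = 1.41e-05). Tet2 had 95.98, 89.8 and 138 CPM in the Vgll3-labelled libraries, against 74.5, 81.9, 64.8 and 80.2 CPM in the Ccne1-labelled libraries. Vgll3 replicate 3 was the highest Tet2 library, and the groups still did not overlap (log2 fold change 0.52 with an SE of 0.15, edgeR adjusted p = 0.0203). Without Ccne1 replicate 3 the adjusted p of Tet2 was 0.0524. The TET pool was 20.03 to 23.8 CPM per kb in the Vgll3-labelled and 11.4 to 13.4 CPM per kb in the Ccne1-labelled libraries. Tet1 supplied at most 2.49% of it in any library. Tet3 supplied 49.2%, 48.8% and 35.1% in the Vgll3-labelled and 32.0% to 37.3% in the Ccne1-labelled libraries, so its share was larger in Vgll3 replicates 1 and 2 and lay within the Ccne1-labelled range in replicate 3.

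Of the 3 genes for proteins with a methyl-CpG binding domain, 2 rose, by less than 1.5-fold, and none fell. Mbd1, a methyl-CpG binding repressor, averaged 28.7 ± 3.17 CPM in the Vgll3-labelled libraries, against 22.4 ± 0.8096 CPM in the Ccne1-labelled libraries (log2 fold change 0.36 with an SE of 0.09, edgeR adjusted p = 0.00885). Mbd3, a subunit of the NuRD remodelling and deacetylase complex, averaged 88.5 ± 1.46 CPM in the Vgll3-labelled libraries, against 76.1 ± 4.28 CPM in the Ccne1-labelled libraries (log2 fold change 0.22 with an SE of 0.07, edgeR adjusted p = 0.0226), and its call was lost in 3 of the 7 repeats that left out 1 library. Mbd2, the alternative to Mbd3 in NuRD, averaged 96.4 ± 12.3 CPM in the Vgll3-labelled libraries, against 93.95 ± 2.99 CPM in the Ccne1-labelled libraries (edgeR adjusted p = 0.747). Of 13 further DNA methylation genes, 5 were higher and 4 lower. Cdca7l, a relative of Cdca7, the partner of the remodeller Hells, averaged 38.8 ± 2.46 CPM in the Vgll3-labelled libraries, against 14.9 ± 1.302 CPM in the Ccne1-labelled libraries (2.61-fold higher, edgeR adjusted p = 1.06e-05). Dnmt3l, the catalytically inactive partner of the de novo enzymes, was barely present, with 0.557, 0.416 and 0.368 CPM in the Vgll3-labelled libraries, against 0, 0.0577, 0.03097 and 0.0363 CPM in the Ccne1-labelled libraries. A count of 3 corresponds to 0.056 to 0.138 CPM in these libraries, so the Ccne1-labelled values are at or near the limit of counting. Zbtb33, which encodes the methyl-DNA binding protein Kaiso, averaged 13.9 ± 1.75 CPM (Vgll3-labelled) against 25.1 ± 2.49 CPM (Ccne1-labelled) and fell (edgeR adjusted p = 0.000371).

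Within PRC2 the catalytic subunits moved in opposite directions. Ezh2 (ENSMUSG00000029687, chr6:47530139-47595341, minus strand), the H3K27 methyltransferase of dividing cells, had 64.3, 58.8 and 52.04 CPM in the Vgll3-labelled libraries, against 28.7, 25.96, 26.7 and 27.5 CPM in the Ccne1-labelled libraries. The groups were far apart, 2.147-fold on average (log2 fold change 1.10 with an SE of 0.09, edgeR adjusted p = 2.14e-05). Ezh1 (ENSMUSG00000006920, chr11:101191115-101226463, minus strand), its paralog in cells that have stopped dividing, had 35.9, 34.4 and 43.2 CPM in the Vgll3-labelled libraries, against 61.8, 58.5, 55.6 and 49.99 CPM in the Ccne1-labelled libraries. Every Vgll3-labelled library lay below every Ccne1-labelled one (log2 fold change -0.58 with an SE of 0.11, edgeR adjusted p = 0.0017). The ratio of Ezh2 to Ezh1, per kb of exon, was 2.61 to 3.88 in the Vgll3-labelled and 0.965 to 1.20 in the Ccne1-labelled libraries. The log2 ratio differed by 1.67 between groups, a 3.19-fold difference. Its exact permutation p was 0.0286, 2-sided, which is the smallest that 35 splits of 3 and 4 libraries can give. Adjusted over 14 pairs it was 0.05, which is not below the threshold.

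The other 3 PRC2 genes differed by less than 1.5-fold. Eed, which binds methylated H3K27, averaged 25.4 ± 1.58 CPM in the Vgll3-labelled libraries, against 21.0 ± 0.682 CPM in the Ccne1-labelled libraries (log2 fold change 0.28 with an SE of 0.08, edgeR adjusted p = 0.0155), and its call was lost without Vgll3 replicate 1 or 2. Suz12, the scaffold of the complex and a carrier of the E2F letters shown above, had 68.8, 68.01 and 68.8 CPM in the Vgll3-labelled libraries, against 84.5, 81.95, 83.1 and 86.4 CPM in the Ccne1-labelled libraries. The values were close within each group and the groups did not meet (log2 fold change -0.29 with an SE of 0.06, edgeR adjusted p = 0.00276). Jarid2, an accessory subunit, averaged 14.7 ± 0.834 CPM in the Vgll3-labelled libraries, against 13.3 ± 0.516 CPM in the Ccne1-labelled libraries (edgeR adjusted p = 0.212). Of 7 further PRC2 genes tested, 2 were higher and 2 lower. Phf19, an accessory Polycomb-like subunit, averaged 26.4 ± 3.95 CPM (Vgll3-labelled) against 15.03 ± 4.796 CPM (Ccne1-labelled), and the histone chaperone Rbbp4 averaged 181 ± 18.6 CPM (Vgll3-labelled) against 136 ± 6.48 CPM (Ccne1-labelled). Phf1, another Polycomb-like subunit, averaged 19.97 ± 1.69 CPM (Vgll3-labelled) against 32.99 ± 3.72 CPM (Ccne1-labelled), and Epop, a subunit that links PRC2 to elongin, averaged 4.95 ± 0.953 CPM (Vgll3-labelled) against 7.92 ± 0.785 CPM (Ccne1-labelled). Phf19 and Rbbp4 rose (edgeR adjusted p = 0.0183 and 0.00303), while Phf1 and Epop fell (0.000568 and 0.00938).

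**Figure D2:**
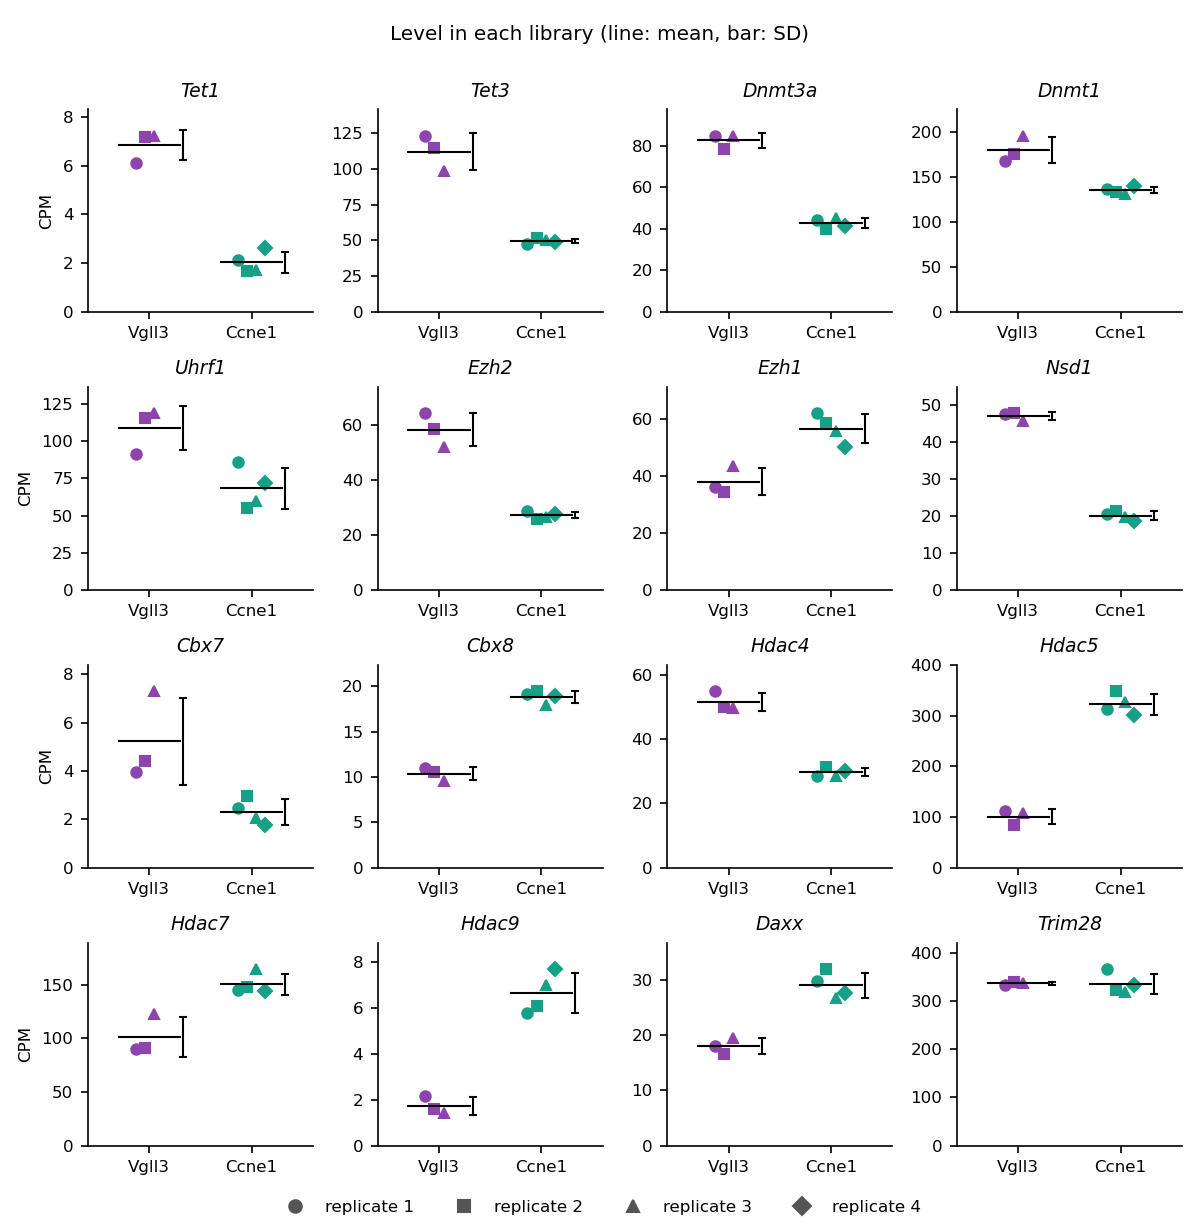
Level in CPM (vertical axes, each starting at 0) of 16 of the genes in every library, with the Vgll3-labelled libraries (n = 3) on the left of each panel and the Ccne1-labelled libraries (n = 4) on the right; the line is the mean and the bar the SD. Ezh2 and Ezh1 move in opposite directions, Hdac5 separates the groups widely, and Trim28 lies between 318.5 and 366.8 CPM in all libraries.

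In PRC1, 3 of 8 genes rose, 4 fell and 1 was not called. The 4 CBX genes, whose chromodomain proteins read methylated H3K27, split. Cbx7 had 3.97, 4.42 and 7.296 CPM in the Vgll3-labelled libraries, against 2.46, 2.98, 2.04 and 1.74 CPM in the Ccne1-labelled libraries, and its Vgll3 replicate 3 value lay well above the others of the group (log2 fold change 1.17 with an SE of 0.28, edgeR adjusted p = 0.00702). Cbx8 (ENSMUSG00000025578, chr11:119036305-119040969, minus strand) had 10.97, 10.6 and 9.54 CPM in the Vgll3-labelled libraries, against 19.2, 19.5, 17.9 and 18.9 CPM in the Ccne1-labelled libraries, a fall of 1.82-fold (log2 fold change -0.86 with an SE of 0.09, edgeR adjusted p = 9.2e-05). Cbx2 had 10.3, 9.07 and 9.94 CPM in the Vgll3-labelled libraries, against 14.2, 11.3, 13.1 and 12.9 CPM in the Ccne1-labelled libraries (log2 fold change -0.40 with an SE of 0.11, edgeR adjusted p = 0.0153). Cbx6 averaged 199 ± 20.98 CPM in the Vgll3-labelled libraries, against 243 ± 5.14 CPM in the Ccne1-labelled libraries (log2 fold change -0.29 with an SE of 0.08, edgeR adjusted p = 0.017) and carried at least 80.6% of the CBX pool per kb in every library. None of the 4 genes overlapped between groups: Cbx7 was higher, and Cbx8, Cbx2 and Cbx6 were lower, in every Vgll3-labelled library than in any Ccne1-labelled one. The sum of the 4 genes was 37.3 to 44.2 CPM per kb in the Vgll3-labelled and 50.7 to 52.2 CPM per kb in the Ccne1-labelled libraries. The ratio of Cbx2 to Cbx7 per kb was 1.22 to 2.29 in the Vgll3-labelled and 3.34 to 6.43 in the Ccne1-labelled libraries, a 2.89-fold difference (exact permutation p = 0.0286, adjusted over 14 pairs 0.05). Exons of Cbx6 share 9.7% of their bases with Npcd on the same strand, so reads there could be assigned to either gene.

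The catalytic and structural PRC1 genes also differed in direction. Rnf2, the ubiquitin ligase, had 35.2, 32.6 and 32.4 CPM in the Vgll3-labelled libraries, against 37.2, 48.7, 43.04 and 46.3 CPM in the Ccne1-labelled libraries. The groups came closest at replicate 1 of each and did not overlap (log2 fold change -0.39 with an SE of 0.10, edgeR adjusted p = 0.00949). Its partner Bmi1 averaged 62.7 ± 7.34 CPM in the Vgll3-labelled libraries, against 52.95 ± 3.02 CPM in the Ccne1-labelled libraries (log2 fold change 0.24 with an SE of 0.09, edgeR adjusted p = 0.0514), just outside the threshold. Phc2, a polyhomeotic subunit that joins PRC1 particles, had 195, 201 and 188 CPM in the Vgll3-labelled libraries, against 128, 128, 136 and 133 CPM in the Ccne1-labelled libraries. It rose with no overlap (log2 fold change 0.57 with an SE of 0.06, edgeR adjusted p = 0.000114), and its paralog Phc1 averaged 59.2 ± 3.19 CPM in the Vgll3-labelled libraries, against 46.8 ± 2.81 CPM in the Ccne1-labelled libraries (log2 fold change 0.34 with an SE of 0.07, edgeR adjusted p = 0.00461). Of 14 further PRC1 genes, 4 were higher and 4 lower. Rybp, a subunit of non-canonical PRC1, averaged 79.1 ± 14.6 CPM (Vgll3-labelled) against 48.1 ± 2.11 CPM (Ccne1-labelled), and Pcgf1, another such subunit, averaged 7.83 ± 0.395 CPM (Vgll3-labelled) against 4.803 ± 0.899 CPM (Ccne1-labelled), and both rose (edgeR adjusted p = 0.000795 for Rybp and 0.00665 for Pcgf1). Ring1, the paralog of Rnf2, averaged 8.61 ± 1.65 CPM (Vgll3-labelled) against 14.3 ± 1.11 CPM (Ccne1-labelled), and Pcgf2, the paralog of Bmi1, averaged 23.1 ± 3.33 CPM (Vgll3-labelled) against 41.8 ± 2.39 CPM (Ccne1-labelled). Both fell (edgeR adjusted p = 0.00238 for Ring1 and 0.000197 for Pcgf2).

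Of 6 genes that write the repressive methyl mark on H3K9 or recruit its writers, 1 fell, none rose and 5 were not called. Ehmt2, which encodes the dimethyltransferase G9a, had 203, 218 and 218 CPM in the Vgll3-labelled libraries, against 287, 288, 278 and 264 CPM in the Ccne1-labelled libraries. Its groups did not overlap (log2 fold change -0.39 with an SE of 0.07, edgeR adjusted p = 0.00144), while its partner Ehmt1 averaged 52.01 ± 2.47 CPM in the Vgll3-labelled libraries, against 55.03 ± 2.79 CPM in the Ccne1-labelled libraries (edgeR adjusted p = 0.364). Trim28, the corepressor that recruits Setdb1 to zinc finger proteins, was the highest of the 58 genes per kb of exon and averaged 337 ± 2.71 CPM in the Vgll3-labelled libraries, against 336 ± 21.7 CPM in the Ccne1-labelled libraries (log2 fold change 0.01 with an SE of 0.07, edgeR adjusted p = 0.949). Setdb1 averaged 74.9 ± 4.12 CPM in the Vgll3-labelled libraries, against 84.2 ± 4.65 CPM in the Ccne1-labelled libraries (edgeR adjusted p = 0.077). Suv39h1 and Suv39h2, which trimethylate H3K9 at pericentric repeats, were not called. Suv39h1 averaged 74.98 ± 1.66 CPM (Vgll3-labelled) against 64.2 ± 9.66 CPM (Ccne1-labelled), and Suv39h2 averaged 9.15 ± 2.19 CPM (Vgll3-labelled) against 7.89 ± 0.976 CPM (Ccne1-labelled) (edgeR adjusted p = 0.128 for Suv39h1 and 0.348 for Suv39h2). Exons of Suv39h2 share 8.25% of their bases with Dclre1c on the opposite strand. Of 10 further genes of this mark, 3 rose and 1 fell. The heterochromatin protein genes Cbx5, at 176 ± 15.3 CPM (Vgll3-labelled) against 115 ± 11.6 CPM (Ccne1-labelled), and Cbx3, at 171 ± 10.8 CPM (Vgll3-labelled) against 115 ± 9.798 CPM (Ccne1-labelled), rose (edgeR adjusted p = 0.0008 and 0.000586). Wiz, a partner of G9a, averaged 62.01 ± 4.34 CPM (Vgll3-labelled) against 75.5 ± 2.48 CPM (Ccne1-labelled) and fell (edgeR adjusted p = 0.00872).

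Among writers of other histone methylation marks, 3 of 5 rose and none fell. Nsd1 (ENSMUSG00000021488, chr13:55209782-55318325, plus strand), which dimethylates H3K36, had 47.6, 47.8 and 45.8 CPM in the Vgll3-labelled libraries, against 20.5, 21.4, 19.9 and 18.6 CPM in the Ccne1-labelled libraries. The narrow groups lay far apart, and its rise was 2.34-fold (log2 fold change 1.23 with an SE of 0.07, edgeR adjusted p = 7.45e-06). Its paralog Nsd2 had 124, 122 and 119 CPM in the Vgll3-labelled libraries, against 91.95, 75.5, 92.6 and 87.9 CPM in the Ccne1-labelled libraries, again without overlap (log2 fold change 0.48 with an SE of 0.08, edgeR adjusted p = 0.0012). Per kb of exon Nsd2 exceeded Nsd1 in every library, by 2.23 to 2.28 times in the Vgll3-labelled and 3.09 to 4.14 times in the Ccne1-labelled libraries (exact permutation p = 0.0286, adjusted over 14 pairs 0.05). Kmt2d, which methylates H3K4 at enhancers, averaged 319 ± 44.3 CPM in the Vgll3-labelled libraries, against 247 ± 7.41 CPM in the Ccne1-labelled libraries (log2 fold change 0.37 with an SE of 0.09, edgeR adjusted p = 0.00946). Kmt2a, the H3K4 methyltransferase known as MLL1, had 149, 139 and 161 CPM in the Vgll3-labelled libraries, against 141, 142, 142 and 143 CPM in the Ccne1-labelled libraries, and the groups overlapped. The H3K79 methyltransferase Dot1l averaged 82.2 ± 5.48 CPM (Vgll3-labelled) against 93.3 ± 5.51 CPM (Ccne1-labelled). Neither was called (edgeR adjusted p = 0.358 and 0.0701). Of 16 further histone and arginine methyltransferase genes, 4 rose and 2 fell. The arginine methyltransferases Prmt1, at 127 ± 11.2 CPM (Vgll3-labelled) against 89.5 ± 7.59 CPM (Ccne1-labelled), and Carm1, at 115 ± 5.07 CPM (Vgll3-labelled) against 84.9 ± 7.52 CPM (Ccne1-labelled), rose (edgeR adjusted p = 0.00158 and 0.00211). The H4K20 methyltransferase Kmt5a, at 138 ± 8.75 CPM (Vgll3-labelled) against 213 ± 10.1 CPM (Ccne1-labelled), and Kmt2e, at 118 ± 9.68 CPM (Vgll3-labelled) against 185 ± 11.1 CPM (Ccne1-labelled), fell (edgeR adjusted p = 0.000167 and 0.000234).

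Of the 6 histone demethylases, 2 rose and 4 were not called. Kdm1a, known as LSD1, which removes methyl groups from H3K4, had 237, 244 and 172 CPM in the Vgll3-labelled libraries, against 138, 146, 131 and 125 CPM in the Ccne1-labelled libraries. Vgll3 replicate 3 was the lowest of its group and still above all Ccne1-labelled values (log2 fold change 0.69 with an SE of 0.12, edgeR adjusted p = 0.00143). Kdm4a, which acts on trimethylated H3K9 and H3K36, had 110.4, 108 and 85.3 CPM in the Vgll3-labelled libraries, against 65.3, 71.5, 65.3 and 61.8 CPM in the Ccne1-labelled libraries, a rise of 1.54-fold with no overlap (log2 fold change 0.62 with an SE of 0.10, edgeR adjusted p = 0.000897). Its paralog Kdm4c had 19.2, 17.95 and 18.8 CPM in the Vgll3-labelled libraries, against 15.97, 20.7, 16.4 and 16.2 CPM in the Ccne1-labelled libraries. The high Ccne1 replicate 2 put the Kdm4c groups into overlap (edgeR adjusted p = 0.442). The H3K4 demethylase Kdm5b, the H3K27 demethylase Kdm6b, and Kdm2b, which brings PRC1 to unmethylated CpG islands, had log2 fold changes of -0.06, 0.16 and 0.09 and edgeR adjusted p of 0.745, 0.186 and 0.358. Kdm2b shares 10.7% of its exon bases with Rnf34 on the opposite strand. Of 11 further demethylase genes, 1 rose and 6 fell. Kdm5a averaged 112 ± 0.417 CPM (Vgll3-labelled) against 92.1 ± 9.35 CPM (Ccne1-labelled) and rose (edgeR adjusted p = 0.0227). The demethylase genes Phf2, at 81.1 ± 8.81 CPM (Vgll3-labelled) against 114 ± 5.06 CPM (Ccne1-labelled), and Kdm4b, at 52.1 ± 8.78 CPM (Vgll3-labelled) against 80.8 ± 11.9 CPM (Ccne1-labelled), fell (edgeR adjusted p = 0.00147 and 0.0052).

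All 8 histone deacetylase genes were called, 4 higher and 4 lower. Of the class I genes, Hdac1, Hdac2 and Hdac3, whose enzymes sit in nuclear corepressor complexes, rose together. Hdac8, also of class I, was counted with the further deacetylase genes below. Hdac1 averaged 128 ± 7.12 CPM in the Vgll3-labelled libraries, against 87.8 ± 2.92 CPM in the Ccne1-labelled libraries (log2 fold change 0.55 with an SE of 0.07, edgeR adjusted p = 0.000192). Hdac2 averaged 132 ± 23.7 CPM in the Vgll3-labelled libraries, against 99.1 ± 3.92 CPM in the Ccne1-labelled libraries (log2 fold change 0.41 with an SE of 0.11, edgeR adjusted p = 0.0147). Hdac3 averaged 77.5 ± 4.38 CPM in the Vgll3-labelled libraries, against 61.4 ± 1.53 CPM in the Ccne1-labelled libraries (log2 fold change 0.34 with an SE of 0.07, edgeR adjusted p = 0.00242). Their sum was 119.8 to 139.2 CPM per kb in the Vgll3-labelled and 92.4 to 99.0 CPM per kb in the Ccne1-labelled libraries. The call of Hdac2 was lost without Vgll3 replicate 1 or 2, and Vgll3 replicate 3, at 106 CPM, was the lowest Vgll3-labelled library for this gene. The Hdac1 to Hdac2 ratio overlapped between groups (exact permutation p = 0.229).

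Class IIa deacetylases, which bind MEF2 factors and shuttle between nucleus and cytoplasm, went in both directions. Hdac5 (ENSMUSG00000008855, chr11:102194432-102230166, minus strand) had 111, 83.5 and 107 CPM in the Vgll3-labelled libraries, against 313, 349, 327 and 302 CPM in the Ccne1-labelled libraries. The groups were widely separated, a 3.21-fold fall (log2 fold change -1.68 with an SE of 0.11, edgeR adjusted p = 1.06e-05). Hdac9 (ENSMUSG00000004698, chr12:34047580-34917095, minus strand) was low, with 2.17, 1.59 and 1.41 CPM in the Vgll3-labelled libraries, against 5.78, 6.101, 6.998 and 7.702 CPM in the Ccne1-labelled libraries. It had the largest fall of the 58 genes, 3.84-fold (log2 fold change -1.94 with an SE of 0.22, edgeR adjusted p = 0.000117). Hdac7 had 90.1, 90.8 and 123 CPM in the Vgll3-labelled libraries, against 145, 148, 165 and 145 CPM in the Ccne1-labelled libraries, with Vgll3 replicate 3 high in its group but below all Ccne1-labelled libraries (log2 fold change -0.57 with an SE of 0.12, edgeR adjusted p = 0.00317). Hdac4 had 54.96, 50.2 and 49.7 CPM in the Vgll3-labelled libraries, against 28.7, 31.2, 28.7 and 30.2 CPM in the Ccne1-labelled libraries and was the member of the class that rose, with no overlap (log2 fold change 0.80 with an SE of 0.07, edgeR adjusted p = 4.23e-05).

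The class IIa pool was accordingly smaller and differently composed. Its sum was 39.5 to 50.03 CPM per kb in the Vgll3-labelled libraries, against 87.3 to 96.2 CPM per kb in the Ccne1-labelled libraries. Hdac5 supplied 37.6% to 44.0% of it in the Vgll3-labelled and 60.9% to 64.5% in the Ccne1-labelled libraries. Hdac4 supplied 12.3% to 15.7% in the Vgll3-labelled and 3.71% to 4.26% in the Ccne1-labelled libraries. Hdac7 and Hdac5 were near parity in Vgll3-labelled libraries, with a ratio per kb of 0.919 to 1.30, against 0.480 to 0.571 in the Ccne1-labelled libraries (exact permutation p = 0.0286, adjusted over 14 pairs 0.05).

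Sirt1, a deacetylase that depends on NAD, averaged 54.4 ± 2.48 CPM in the Vgll3-labelled libraries, against 68.8 ± 6.69 CPM in the Ccne1-labelled libraries (log2 fold change -0.34 with an SE of 0.09, edgeR adjusted p = 0.0115). Of 17 further deacetylases and partner genes, 3 rose and 8 fell. The sirtuin gene Sirt6 averaged 15.8 ± 1.77 CPM (Vgll3-labelled) against 8.91 ± 0.686 CPM (Ccne1-labelled) and rose (edgeR adjusted p = 0.000381). The nuclear sirtuin Sirt7 averaged 10.7 ± 0.839 CPM (Vgll3-labelled) against 22.3 ± 1.97 CPM (Ccne1-labelled), Mta3, a NuRD subunit, averaged 17.1 ± 1.04 CPM (Vgll3-labelled) against 31.99 ± 0.823 CPM (Ccne1-labelled), and both fell (edgeR adjusted p = 6.56e-05 and 2.97e-05). Of 14 genes for acetyltransferases and acetyl-lysine readers, 2 rose and 3 fell. The bromodomain genes Brd9, at 32.1 ± 4.42 CPM (Vgll3-labelled) against 24.6 ± 1.21 CPM (Ccne1-labelled), and Brd7, at 76.6 ± 2.14 CPM (Vgll3-labelled) against 67.9 ± 3.09 CPM (Ccne1-labelled), rose at edgeR adjusted p = 0.0116 and 0.0491. The acetyltransferase gene Kat2a, at 64.3 ± 1.14 CPM (Vgll3-labelled) against 79.2 ± 5.42 CPM (Ccne1-labelled), fell at edgeR adjusted p = 0.00706.

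Within the SWI/SNF (BAF) remodellers, Arid1a rose and its alternative Arid1b fell. The median of the genes around each on its chromosome moved in the same direction, as given below. Arid1a had 220.1, 229 and 235 CPM in the Vgll3-labelled libraries, against 159, 156, 160.3 and 146 CPM in the Ccne1-labelled libraries, and rose without overlap (log2 fold change 0.55 with an SE of 0.07, edgeR adjusted p = 0.000166). Arid1b, which takes the same place in the complex, had 80.7, 85.5 and 75.6 CPM in the Vgll3-labelled libraries, against 111, 105, 93.4 and 101 CPM in the Ccne1-labelled libraries, and fell without overlap (log2 fold change -0.34 with an SE of 0.08, edgeR adjusted p = 0.00592). The ratio of Arid1a to Arid1b per kb was 3.58 to 4.15 in the Vgll3-labelled and 1.92 to 2.30 in the Ccne1-labelled libraries (exact permutation p = 0.0286, adjusted over 14 pairs 0.05). Of the alternative ATPases, Smarca2 had 77.4, 92.8 and 82.9 CPM in the Vgll3-labelled libraries, against 60.7, 59.2, 57.8 and 57.9 CPM in the Ccne1-labelled libraries and rose (log2 fold change 0.52 with an SE of 0.08, edgeR adjusted p = 0.000491). Smarca4 had 222, 228 and 231 CPM in the Vgll3-labelled libraries, against 219, 207, 212 and 211 CPM in the Ccne1-labelled libraries. Its groups were just separate, but it was not called (edgeR adjusted p = 0.219). The core subunit Smarcb1, lost in several paediatric sarcomas, averaged 55.3 ± 3.33 CPM in the Vgll3-labelled libraries, against 56.8 ± 3.38 CPM in the Ccne1-labelled libraries (edgeR adjusted p = 0.685).

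Hells, a remodeller needed for DNA methylation of repeats, had 48.6, 65.3 and 58.6 CPM in the Vgll3-labelled libraries, against 48.7, 35.8, 40.4 and 43.1 CPM in the Ccne1-labelled libraries. Vgll3 replicate 1 and Ccne1 replicate 1 were level, so the groups overlapped, although the gene was called (log2 fold change 0.45 with an SE of 0.13, edgeR adjusted p = 0.0147). That call was lost without Vgll3 replicate 2. Atrx, which with Daxx deposits the histone variant H3.3, had 149, 159 and 165 CPM in the Vgll3-labelled libraries, against 208, 199, 208 and 233 CPM in the Ccne1-labelled libraries, and fell (log2 fold change -0.43 with an SE of 0.08, edgeR adjusted p = 0.00182). Daxx had 18.1, 16.6 and 19.5 CPM in the Vgll3-labelled libraries, against 29.8, 31.99, 26.7 and 27.7 CPM in the Ccne1-labelled libraries, and fell further, 1.61-fold (log2 fold change -0.68 with an SE of 0.10, edgeR adjusted p = 0.000399). Both genes of this chaperone pair were lower in all 3 Vgll3-labelled libraries. Chd7, a chromodomain remodeller, had 59.6, 49.4 and 64.2 CPM in the Vgll3-labelled libraries, against 74.2, 82.7, 75.7 and 74.4 CPM in the Ccne1-labelled libraries (log2 fold change -0.41 with an SE of 0.10, edgeR adjusted p = 0.00635). Of 30 further remodeller and chaperone genes tested, 8 rose and 6 fell. The remodeller gene Chd9 averaged 183 ± 8.38 CPM (Vgll3-labelled) against 113 ± 4.95 CPM (Ccne1-labelled), and Ss18, a BAF subunit and the fusion partner in synovial sarcoma, averaged 144 ± 11.5 CPM (Vgll3-labelled) against 93.8 ± 2.82 CPM (Ccne1-labelled). Both rose. Chd3, a NuRD ATPase, averaged 268 ± 4.43 CPM (Vgll3-labelled) against 402 ± 33.1 CPM (Ccne1-labelled), and Dpf1, a BAF subunit of neurons, averaged 2.88 ± 1.104 CPM (Vgll3-labelled) against 5.21 ± 0.491 CPM (Ccne1-labelled). Both fell. Their edgeR adjusted p-values were 5.45e-05 for Chd9, 0.000158 for Ss18, 0.000418 for Chd3 and 0.0196 for Dpf1.

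**Figure D3:**
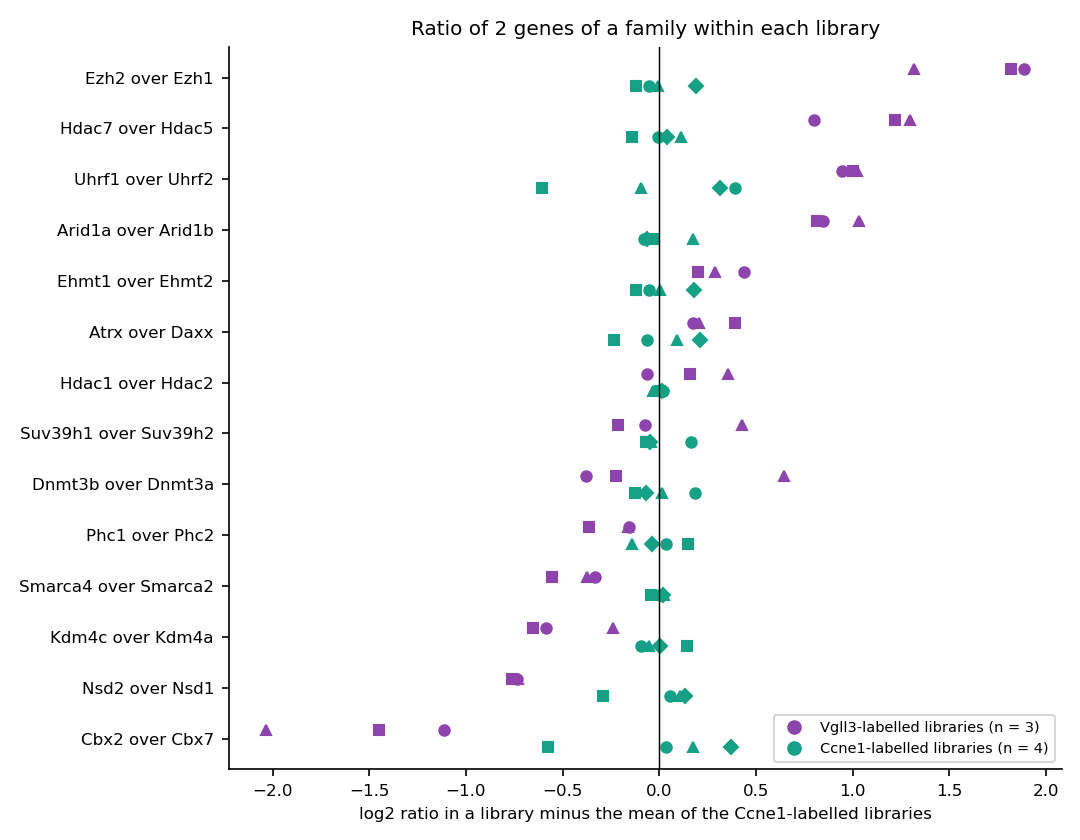
Log2 ratio of a pair of genes of 1 family or complex in each library, minus the mean of the Ccne1-labelled libraries (horizontal axis), for 14 pairs down the page; purple is Vgll3-labelled (n = 3, drawn above), green is Ccne1-labelled (n = 4), and circle, square, triangle and diamond are replicates 1, 2, 3 and 4. The groups are separate in 10 pairs, 5 to each side, and the ratio of Dnmt3b to Dnmt3a overlaps.

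Across the 14 pairs of related genes, the groups did not overlap in 10, with the ratio higher in the Vgll3-labelled libraries in 5 and lower in 5. Of these, 8 reached the smallest exact permutation p of 0.0286, and no pair had a p adjusted over the 14 pairs below 0.05. Ratios of other gene pairs were not computed, so the count of 10 cannot be read as a trait of these families. Among single genes tested, 55.7% did not overlap between groups. Ezh2 and Ezh1, and likewise Arid1a and Arid1b, lie on chromosomes whose medians, given below, shifted in opposite directions. The Dnmt3b to Dnmt3a ratio differed by 0.01 on the log2 scale (exact permutation p = 1), with the Vgll3-labelled values spread on both sides of the Ccne1-labelled ones. The ratio of Uhrf1 to Uhrf2 per kb was 2.94 to 3.10 in the Vgll3-labelled and 1.00 to 2.00 in the Ccne1-labelled libraries. That of Smarca4 to Smarca2 was 2.81 to 3.28 in the Vgll3-labelled and 4.01 to 4.19 in the Ccne1-labelled libraries. That of Kdm4c to Kdm4a was 0.194 to 0.258 in the Vgll3-labelled and 0.286 to 0.337 in the Ccne1-labelled libraries.

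Over all 132 other chromatin genes tested, of 135 listed, 32 rose and 36 fell, 51.5% against 51.9% of all genes, with a median log2 fold change of 0.01. Without Vgll3 replicate 2, 21 rose. The share called among the 58 genes was 70.7%, and the lists were not compared by a test. The 58 genes and the other lists were chosen with earlier results of these data known, so these shares cannot show a trait of the 58.

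DNA replication genes moved in the same direction as several of the regulators. Of 15 replication genes (MCM, GINS, ribonucleotide reductase and others), 11 rose and none fell, and they summed to 1152 to 1332 CPM in the Vgll3-labelled and 739.9 to 979.5 CPM in the Ccne1-labelled libraries. Their mean log2 CPM was subtracted from that of each regulator in the same library. On that scale Uhrf1 differed by 0.04 and Dnmt1 by -0.24 (Vgll3-labelled minus Ccne1-labelled), and both overlapped between groups. Hells differed by -0.19, with the Vgll3-labelled values between -0.07 and 0.14 and the Ccne1-labelled values between 0.19 and 0.26. Tet1, Nsd1 and Ezh2 stayed higher without overlap, by 1.10, 0.58 and 0.45. Tet3 and Dnmt3a differed by 0.53 and 0.31, and their groups overlapped narrowly. The part of replication or growth in these differences was not tested.

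The place of a gene on the chromosomes was recorded beside its change. The median log2 fold change over all tested genes was 0.44 on chromosome 4, 0.39 on chromosome 6 and 0.29 on chromosome 18, and it was -0.30 on chromosome 11 and -0.33 on chromosome 17. These 5 chromosomes were picked after their values were seen. On chromosomes 4, 6 and 18, 10 of the 13 regulators were higher and 1 lower, beside 51.0% and 10.1% of all tested genes there. On chromosomes 11 and 17, 1 of 10 was higher and 8 were lower, beside 11.3% and 47.5% of all tested genes there. On the other chromosomes 15 of 35 were higher and 6 lower, beside 22.8% and 26.3%. What moved the genes of a chromosome together was not tested.

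Each gene was therefore set beside the median of up to 50 tested genes on either side of it. Suz12 (log2 fold change -0.29) and Cbx2 (-0.40) lay close to their neighbours on chromosome 11, at -0.26 and -0.38. Hdac1 (0.55), Phc2 (0.57) and Kdm4a (0.62) on chromosome 4 had neighbours at 0.44 each, and Dnmt3a (0.95) had neighbours at 0.66 on chromosome 12. Arid1a (0.55) on chromosome 4 had neighbours at 0.35, and Arid1b (-0.34) on chromosome 17 had neighbours at -0.23. Those of Hdac3 (0.34) on chromosome 18 were at 0.195. Ezh1 (-0.58) on chromosome 11 had neighbours at -0.27. On chromosome 17, Daxx (-0.68) had neighbours at -0.33 and Ehmt2 (-0.39) had neighbours at -0.26. Ezh2 exceeded its neighbours on chromosome 6 by 0.63, and Tet3, also on chromosome 6, by 0.74. Others stood against their surroundings. Chd7 fell amid neighbours at 0.60, a difference of -1.01, and Uhrf1 rose amid neighbours at -0.37, a difference of 1.04. Tet1, Nsd1, Dnmt3b and Cbx7 exceeded their neighbours by 1.84, 1.21, 1.13 and 1.10, and Hdac9 and Hdac5 lay below theirs, with differences of -2.22 and -1.36. The median absolute log2 fold change of the 58 genes was 0.31 relative to neighbours and 0.40 without that subtraction, and 11 and 15 of them were past 1.5-fold. That subtraction was not made over all genes tested, so the lower values cannot be read as a trait of the 58.

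**Figure D4:**
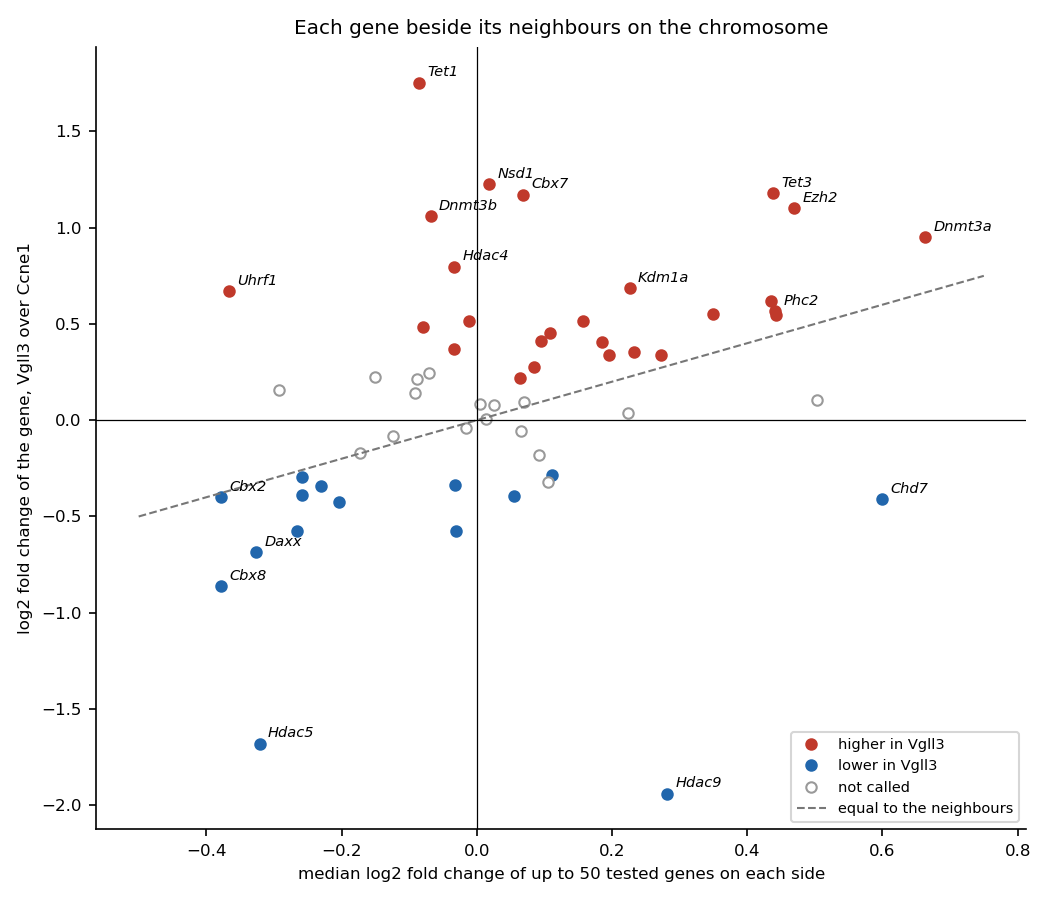
Log2 fold change of each of the 58 genes (vertical axis, Vgll3-labelled over Ccne1-labelled) against the median of up to 50 tested genes on each side of it on its chromosome (horizontal axis); red is called higher, blue called lower, open not called, and the dashed line marks equality. Tet1, Nsd1 and Cbx7 lie far above the line near 0, Hdac5 and Hdac9 far below it, and Chd7 lies below it among raised neighbours.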

How the data were processed

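RNA was extracted with TRIzol from sorted RFP+ tumour cells and polyA libraries were made, per the labels' protocols. The authors deposited estimated counts per Ensembl gene, all whole numbers, in 1 table of 7 libraries; per the submitters' processing notes they used Salmon and mm10. The sources used here do not give the Salmon version, its annotation or whether counting used strand, so reads of overlapping genes may be shared.

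Groups and replicate numbers came from the sample titles. The regulators, the other lists, the markers, the pairs and the tests were chosen with earlier results of these data known. Counts were tested with edgeR 4.0.16 in R 4.3.3 (filterByExpr, TMM scaling, robust quasi-likelihood F test, model as the only term), with Benjamini-Hochberg adjustment over the 13740 genes tested at 0.05. Fold changes put the Vgll3-labelled libraries over the Ccne1-labelled ones. The biological coefficient of variation was 20.7%. Values per library are CPM on TMM effective library sizes. Levels per kb divide by the union of exons in the GRCm38 annotation, which equals mm10. Pair ratios used log2 CPM with a prior count of 2 and a 2-sided exact permutation test over 35 splits. No library was a copy of another, since pairs within a group gave 11.7 to 88.9 for chi-square divided by its degrees of freedom. Counting limits cover counting error only. The code was tested on simulated data.

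Genes given with values were those of the DNA methyltransferase, Uhrf1, TET, Ezh1 and Ezh2 set, up to 12 called regulators with the largest rise and up to 12 with the largest fall, and both genes of the pairs described. Kmt2a, Suz12 and Hells were given per library in addition, chosen after their values were seen. Of the other chromatin genes, up to 2 called genes per list and direction were named. Some genes chosen by this rule are not reported here. Alternatives were RLE and upper-quartile scaling, no filter on low counts, DESeq2 1.42.0, limma-voom (limma 3.58.1), a replicate block, another prior count, and leaving out each library. The neighbour medians, the minimum of 20 CPM and the minimum of 20 CG pairs were added after the data were seen.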

Additional observations from a re-analysis of the deposited data

Results flagged for a closer look

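Within the 4 Ccne1-labelled libraries, 1 library lay far from the other 3 for 5 of the 58 genes, by Dixon's ratio; by chance about 1 group in 20 does. Kmt2d, the enhancer methyltransferase, had 257.8 CPM in Ccne1 replicate 3 and 242.5 to 243.4 CPM in the others. Hdac7 had 164.6 CPM in the same library and 144.5 to 147.5 CPM in the others. Ccne1 replicate 2, the most deeply sequenced library, stood apart for the other three genes. Kdm4c had 17.95 to 19.18 CPM in the Vgll3-labelled libraries, against 20.65 CPM in Ccne1 replicate 2 and 15.97 to 16.41 CPM in the other Ccne1-labelled libraries. Chd7 had 82.71 CPM in Ccne1 replicate 2 and 74.21 to 75.65 CPM in the others. Hdac1 had 83.46 CPM in that library, below the 89.16 to 89.52 CPM of the others. The calls of Kmt2d, Hdac7, Chd7 and Hdac1 held without the library that stood apart.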

How the results depend on the processing

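Of the 41 regulators called, 25 were called in the same direction under all 13 alternatives and 16 were lost under at least 1; no direction reversed. DESeq2 and limma-voom each called 26 higher and 15 lower. Leaving out 1 library gave 22 to 28 regulators higher and 14 to 16 lower, 10 to 13 and 4 to 6 with the fold of 1.5. For the other chromatin genes it gave 21 to 32 higher and 27 to 36 lower, the lowest of these for higher genes being 21 without Vgll3 replicate 2. The adjusted p of Mbd3 was 0.0835 and that of Eed 0.0534 without the filter on low counts, and that of Cbx6 was 0.0708 with upper-quartile scaling, with which the median log2 fold change of all genes was 0.09, against 0.006 with TMM, and which called 16 regulators higher by 1.5-fold. Without Vgll3 replicate 2, Cbx2 (0.0563) and Hells (0.0663) were lost. Of the uncalled genes, 12 were called under no alternative; Bmi1 was called with RLE (0.0426) and upper-quartile scaling (0.0128) and without Vgll3 replicate 3 (0.00582). The cause was not tested. Deviations from the group means correlated at -0.141, -0.159 and -0.098 between same-numbered libraries, and at -0.032 to 0.145 between differently numbered ones. Same-numbered libraries were thus not more alike, but so few libraries cannot settle whether replicate numbers pair them. With a replicate block, 15 regulators were higher (7 by 1.5-fold) and 10 lower, and 19 other chromatin genes were higher and 21 lower. Depth limits Tet1, Dnmt3b, Cbx7 and Hdac9 most, which had under 10 CPM in every library.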
